A study of Brachypodium distachyon with 6 samples.

Results

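A group of 141 genes of the grass Brachypodium distachyon was lower in library 3 of both genotypes than in every other library of the experiment. The genes were chosen from the deposited count table by their measured values. A gene belonged to the group if it had at least 50 counts in each of the 4 libraries numbered 1 and 2, and if its lowest CPM (the count divided by the library's total counts, times 1000000) among those 4 was at least 2 times its higher CPM in the 2 libraries numbered 3. The count table lists 36647 genes. A minimum of 50 counts in each of the 4 libraries was reached by 13977, here called the expressed genes, and 141 of these (1.01%) met the rule. The lower level in the libraries numbered 3 is therefore how the genes were selected and is given as a description, without a test.

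The samples were mature zones of second leaves, taken 25 to 30 mm above the base from seedlings that had grown on plates at 20 degrees for 7 days, and their mRNA was sequenced. The mutant genotype, labelled sid/bdmute-1, gave 3 libraries (bdmute), and the reference genotype Bd21-3 (wild type) gave 3 libraries (WT), each from 25 pooled leaf pieces. The mutant is a single allele, and the labels give no treatment, date or batch. The labels number the libraries of each genotype 1, 2 and 5, whereas the count table numbers its columns 1, 2 and 3, and the numbers of the count table are used here.

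MUTE is a transcription factor of the basic helix-loop-helix family that acts in stomatal development. In grasses each pair of guard cells is flanked by subsidiary cells, and in Brachypodium bdmute plants form stomata without them. The mature zone of a grass leaf holds cells that have finished division and expansion, with photosynthetic mesophyll as the main tissue. The files pair no gene identifier with a name, and 0 of the identifiers matched the RefSeq genes of this species. The roles of the 141 genes, markers of the tissue and the MUTE transcript were therefore not analysed here. In pieces of whole leaf, fewer cells of a type and less RNA per cell cannot be told apart.

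Total counts ran from 22910448 to 34294407 per library. The libraries numbered 3 also differed from the rest in their composition. The 100 most abundant genes held 43.3% of counts in bdmute library 3 and 48.7% in WT library 3, against 51.4% to 55.3% in the other 4 libraries. The normalization factors computed from the trimmed mean of M values (TMM) were 1.27 in bdmute library 3 and 1.16 in WT library 3, against 0.849 to 0.962 in the other 4. Their part in the drop of the 141 genes was not tested. Relative to total counts, the median expressed gene was higher in the libraries numbered 3, by 0.47 on the log2 scale in bdmute and 0.34 in WT, measured from the geometric mean of the 4 libraries numbered 1 and 2. On that scale the 141 genes lay opposite to the bulk of the expressed genes, with their own direction set by the rule. With TMM-normalized CPM the median expressed gene hardly moved. Its log2 of library 3 over the mean of libraries 1 and 2 was -0.04 in bdmute and -0.03 in WT.

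Together the 141 genes held a small and uneven share of the libraries. They made up 0.388% of all counts in bdmute library 3, against 2.98% in bdmute library 1 and 2.54% in bdmute library 2. In WT they made up 0.571% in library 3, against 3.51% in library 1 and 2.06% in library 2. Exact binomial intervals at 95% reached at most 0.00645 percentage points from these shares, and cover counting error only. The 10 most abundant of the genes held between 48.7% and 55.6% of the group's CPM in each library, so the group's share was not that of a single transcript.

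The genes were mostly of middle to high abundance. Their mean CPM over the 4 libraries numbered 1 and 2 had a median of 62.6 and ran from 2.66 to 6009, against a median of 12.7 for all expressed genes. A mean of at least 100 CPM was reached by 52 of the 141 genes (36.9%), against 7.63% of the expressed genes. Low levels under 10 CPM were found for 19 of the 141 (13.5%), against 42.5% of the expressed genes. Counts stayed usable in the libraries numbered 3: 106 of the 141 genes had at least 50 counts in both of them, and 4 had at most 3 counts in at least 1 of them.

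The size of the drop varied widely among the genes. The ratio of the lowest CPM in libraries 1 and 2 to the higher CPM in the libraries numbered 3 had a median of 2.65, with quartiles of 2.24 and 4.08. It was at least 3 for 55 genes, at least 4 for 36 genes and at least 8 for 13 genes. The ratio changed little with abundance, with a median of 2.70 for genes of at least 100 CPM, 2.4996 for genes from 10 to under 100 CPM and 2.90 for genes under 10 CPM. Just inside the threshold the ratios were 2.004, 2.013 and 2.026, and just outside they were 1.9996, 1.9965 and 1.993. Another 61 expressed genes had ratios from 1.8 to under 2, so the group has no natural edge at 2-fold. With TMM-adjusted library sizes in place of total counts, 323 genes met the rule, among them all 141.

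**Figure D1:**
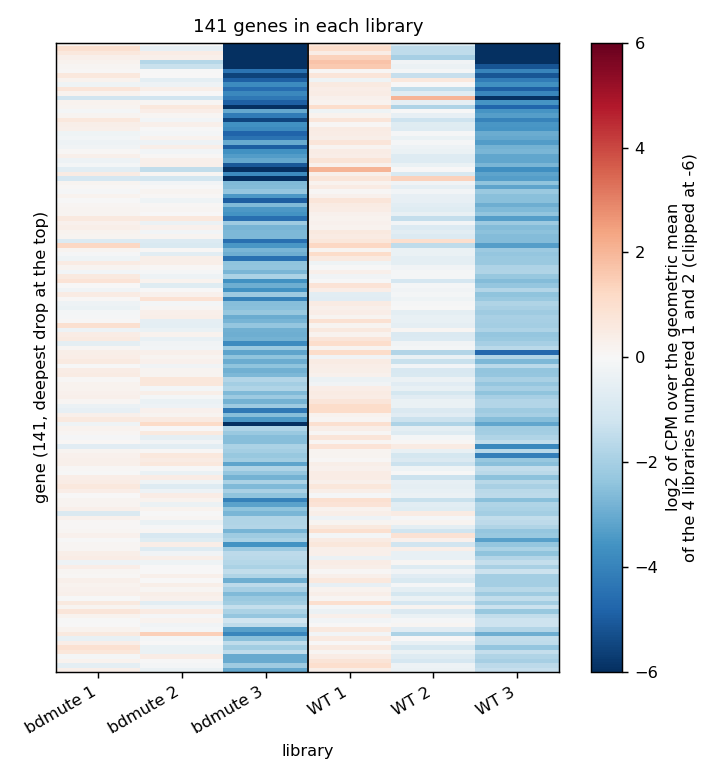
Each row is 1 of the 141 genes, sorted by the depth of the drop, and each column is a library, with bdmute left of WT. Colour gives the log2 of CPM over the geometric mean of the 4 libraries numbered 1 and 2, with 0.5 added to each count and colours clipped at -6. The columns of bdmute library 3 and WT library 3 are the low ones, as the selection requires, and WT library 2 is bluer than WT library 1 in most rows (124 of the 141 genes).

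The 2 genes with the deepest drop among those with at least 10 counts in each library numbered 3 are named. Each identifier is shortened to the part that follows the point in the files, since the prefix BdiBd21-3 is common to the named genes. The gene 1G0090000 had 2.12 CPM in bdmute library 3, against 1022 and 892 CPM in bdmute libraries 1 and 2. It had 8.17 CPM in WT library 3, against 1401 and 476 CPM in WT libraries 1 and 2. Its ratio was 58.2, on 62 counts in bdmute library 3 and 254 in WT library 3, so the gene was among the abundant ones in 4 libraries and scarce in 2.

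The gene 3G0221800 had 5.72 CPM in bdmute library 3, against 1936 and 719.8 CPM in bdmute libraries 1 and 2. It had 6.56 CPM in WT library 3, against 2056 and 351 CPM in WT libraries 1 and 2, and its ratio was 53.4. Library 1 lay above library 2 in both genotypes for this gene, by more than the genotypes differed. For neither of these genes did the genotypes separate in libraries 1 and 2.

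The most abundant gene of the group showed a smaller drop on far more counts. It had 475 CPM in bdmute library 3, against 6240 and 5323 CPM in bdmute libraries 1 and 2. It had 868 CPM in WT library 3, against 7963 and 4509 CPM in WT libraries 1 and 2. This transcript held 12.2% and 15.2% of the group's CPM in bdmute library 3 and WT library 3, against 20.9% to 22.7% in the other 4 libraries.

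The drop was deeper in bdmute than in WT for most of the genes. With TMM-normalized CPM, the log2 of library 3 over the mean of libraries 1 and 2 had a median of -3.22 in bdmute, with quartiles of -4.28 and -2.68. In WT the median was -2.69, with quartiles of -3.45 and -2.30. In folds, library 3 lay 9.29 times below the mean of the other libraries in bdmute at the median, and 6.45 times in WT. The drop was deeper in bdmute for 110 of the 141 genes (78.0%), against 54.6% of all expressed genes. It was deeper in bdmute by at least 1 log2 unit for 36 genes (25.5%) and deeper in WT by as much for 6 (4.26%), against 3.59% and 5.47% of all expressed genes. The median bdmute minus WT difference of the drop was -0.51, and it was -1.10 without WT library 1 and -0.20 without WT library 2. Leaving out each library numbered 1 or 2 in turn left between 88 and 123 genes with a deeper drop in bdmute. The 88 were found without WT library 2, against 54.4% of the expressed genes, and the 123 without WT library 1, against 55.0%. Each genotype has a single library numbered 3, so these values compare those libraries. The drop is also what the rule selected, whereas the expressed genes were not chosen for one, so the shares are a description.

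Whether the drop itself differed between genotypes could be tested only under an assumption. With 1 library numbered 3 per genotype, the error comes from libraries 1 and 2, and each lone library is assumed to vary like them. In edgeR's quasi-likelihood test of the interaction, with Benjamini-Hochberg adjustment, 0 of the 141 genes and 0% of the 20998 genes tested had an adjusted p-value under 0.05. Without adjustment 12 of the 141 genes had a p-value under 0.05, and 2.57% of all genes tested did. Of the 12, the drop was deeper in bdmute for 9 and in WT for 3. DESeq2 with the same terms called 1 of the 141 genes (0.0471% of all genes with a p-value), and 18 of the 141 had an unadjusted p-value under 0.05 (1.87% of all genes). A call here compares 1 bdmute library with 1 WT library. The rule also chose the 141 genes by this same drop, and the other genes tested were not so chosen. The counts among the 141 are therefore a description, and the shares of all genes are not a like comparison.

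That gene, 1G0071500, was named after its values were seen, and it went against the majority. It had 221 counts (7.57 CPM) in bdmute library 3, against 513 and 428 counts (17.9 and 18.7 CPM) in bdmute libraries 1 and 2. It had 60 counts (1.93 CPM) in WT library 3, against 1746 and 1225 counts (50.9 and 39.7 CPM) in WT libraries 1 and 2. The drop was thus shallower in these bdmute libraries, where the gene was lower in libraries 1 and 2 and higher in library 3. The bdmute minus WT difference of the drop was 3.33 ± 0.67 (SE) on the log2 scale in DESeq2, where its adjusted p-value was 0.00362. In edgeR it was 3.31 ± 0.45 (SE), with an unadjusted p-value of 0.000559 and an adjusted p-value of 0.99999, so the call rests on DESeq2 alone.

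**Figure D2:**
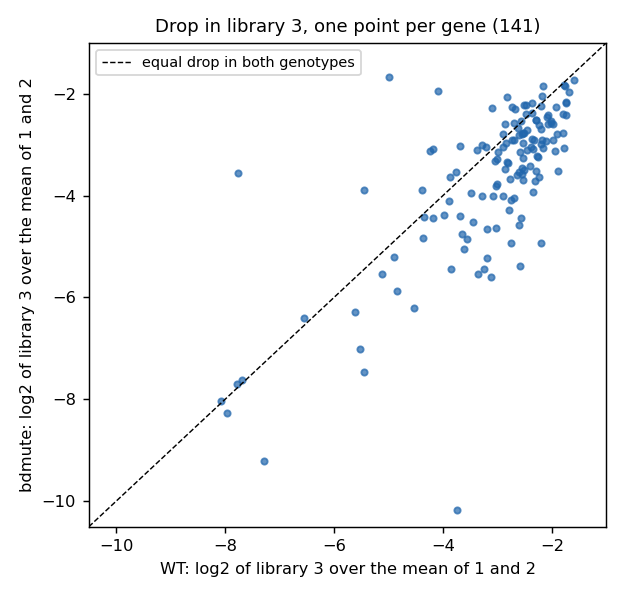
Each point is 1 of the 141 genes, with the log2 of library 3 over the mean of libraries 1 and 2 in bdmute (vertical axis) and WT (horizontal axis), from TMM-normalized CPM with 0.5 added to each count. The dashed line marks an equal drop. Points below the line are the 110 genes with a deeper drop in bdmute, and the lowest point on the vertical axis is the gene with 0 counts in bdmute library 3, whose position depends on the added 0.5.

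The order of libraries 1 and 2, which the rule did not use, was uneven among the 141 genes. The highest of the 4 libraries was 2.25 times the lowest at the median, against 1.57 times for the expressed genes. WT library 1 was the highest of the 4 for 79 genes (56.0%), against 14.4% of the expressed genes. WT library 2 was the lowest of the 4 for 94 genes (66.7%), against 37.7% of the expressed genes. Library 1 lay above library 2 in both genotypes for 85 genes (60.3%), against 27.7% of the expressed genes, and below it in both for 6 genes (4.26%), against 26.7%.

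The split between libraries 1 and 2 was wider in WT than in bdmute. The ratio of library 1 to library 2 had a median of 1.08 in bdmute, with quartiles of 0.933 and 1.32. In WT the median was 1.798, with quartiles of 1.36 and 2.58. The medians over the expressed genes were 1.02 in bdmute and 0.989 in WT. Library 1 was at least 2 times library 2 for 10 of the 141 genes in bdmute and for 62 in WT, which are 7.09% and 44.0% of the genes, against 1.96% and 3.96% of the expressed genes. The group is thus a set of transcripts whose level also varied among the libraries that served as its high side, most of all within WT. Genes are not independent replicates and each ratio compares single libraries, so these values are a description.

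**Figure D3:**
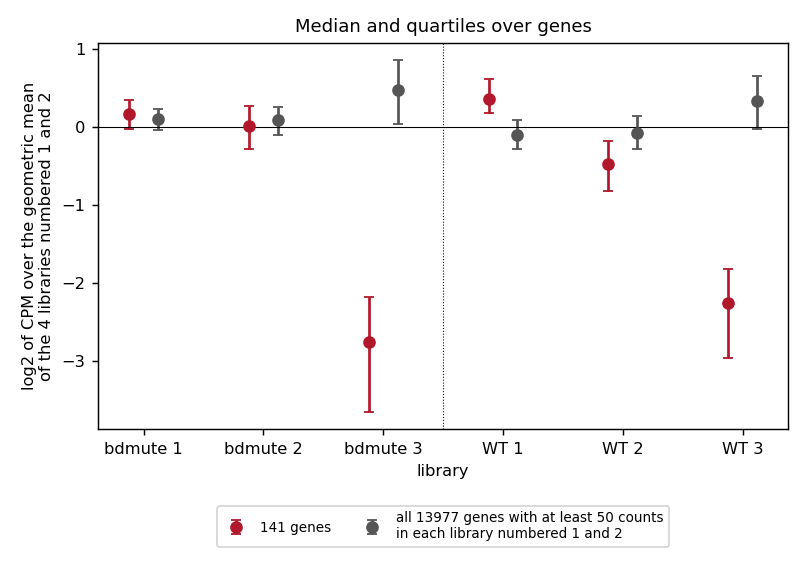
Points give the median and bars the quartiles over genes of the log2 of CPM over the geometric mean of the 4 libraries numbered 1 and 2, by library, for the 141 genes (red) and all 13977 expressed genes (grey), with 0.5 added to each count. The 141 genes lie at -2.76 in bdmute library 3 and -2.25 in WT library 3, and WT libraries 1 and 2 stand apart at 0.36 and -0.47, while the grey medians stay between -0.10 and 0.47.

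The comparison the design implies, bdmute against WT, called none of the 141 genes. In edgeR's quasi-likelihood test with genotype as the only term (n = 3 libraries each), 0 of the 141 had an adjusted p-value under 0.05, where 0% of the 20998 genes tested did. At an unadjusted p-value under 0.05 the count was also 0, against 4.85% of all genes tested. DESeq2 called 0 of the 141, and among the values in the authors' deposited table none of the 141 had an adjusted p-value under 0.05, against 0.647% of all genes with a p-value there. The selection bears directly on this. Both libraries numbered 3 lie below the other 4 for every one of these genes, so the genotypes always overlap. The median SE of the log2 fold change was 1.02 for the 141 genes, against 0.32 for all genes tested.

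A term that marks the 2 libraries numbered 3, called here the library-3 term, takes that shared difference out of the error. With it the median SE of the 141 genes was 0.34, and 1 of them had an adjusted p-value under 0.05, against 0.11% of all genes tested. Without adjustment 20 of the 141 had a p-value under 0.05, against 9.39% of all genes tested. Of the 20, 19 were lower in bdmute, where 6.01% of all genes tested were, and 1 was higher, where 3.38% were. This fit also uses the libraries numbered 3, by whose values the 141 genes were chosen. The counts among the 141 are therefore a description, and the shares of all genes are not a like comparison. In the libraries numbered 1 and 2 alone, edgeR called 0 of the 141 (0% of all genes tested). There 12 were lower and 4 higher at an unadjusted p-value under 0.05, against 4.7% and 2.28% of all genes tested.

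With genotype only, the sign of the group's median depended on which libraries were kept. The median log2 fold change of the 141 genes was -0.08 with genotype only, against a median of 0.02 for all genes tested. It was -0.27 with the library-3 term and -0.06 in the libraries numbered 1 and 2 alone, where the medians of all genes tested were 0.01 and -0.002. Scaling by total counts moved the median of all genes to 0.17 and that of the 141 genes to 0.09. Without WT library 1 the median of the 141 genes was 0.64, without bdmute library 3 it was 0.41 and without WT library 3 it was -0.58. Without bdmute libraries 1 and 2 in turn it was -0.57 and -0.37, and without WT library 2 it was -0.13. The sign of the median thus did not hold across libraries. Library 3 is low by selection, so leaving out a library changes the balance of high and low libraries in its genotype. The shifts without single libraries are therefore partly built in, and do not show whether the group has a direction between genotypes.

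**Figure D4:**
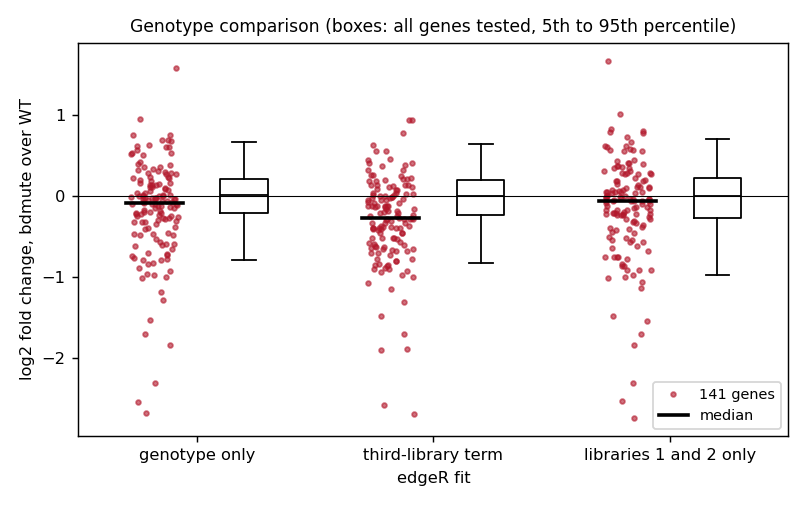
Red points are the log2 fold changes (bdmute over WT) of the 141 genes in 3 edgeR fits, with genotype only, with the library-3 term (labelled third-library term) and in libraries 1 and 2 only, and the thick line is their median. Boxes give the quartiles, median and 5th to 95th percentile of all genes tested. The medians of the 141 genes are -0.08, -0.27 and -0.06.

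Some of the genes separated the genotypes at both levels. Both bdmute libraries numbered 1 and 2 lay on one side of both WT libraries, with library 3 on the same side, for 29 of the 141 genes. This share, 20.6%, is near the 23.8% of the expressed genes that did so. Of these, 22 were lower in bdmute (15.6%, against 11.8% of the expressed genes) and 7 were higher (4.96%, against 12%). The side of library 3 enters this split, and the rule used the values of library 3, so the split is a description. The 2 genes at each end by log2 fold change are given in TMM-normalized CPM. Their choice rests on the genotype values, so the separation itself is a description.

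The gene 1G0509400 was lower in bdmute, at 6.67, 3.70 and 0.0270 CPM in libraries 1, 2 and 3, against 48.4, 11.5 and 0.636 CPM in WT. Means were 3.47 ± 3.33 CPM in bdmute and 20.2 ± 25.0 CPM in WT (SD, n = 3 each). The lowest bdmute value rests on a single count. Its log2 fold change, -2.55 ± 1.69 (SE), had an adjusted p-value of 0.99996 with genotype only and 0.288 with the library-3 term (edgeR).

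The gene 2G0213500 had 26.8, 25.5 and 0.432 CPM in bdmute libraries 1, 2 and 3, against 103, 155 and 4.45 CPM in WT. The mean was 17.6 ± 14.9 CPM in bdmute and 87.2 ± 76.2 CPM in WT (SD, n = 3 each). Its log2 fold change was -2.31 ± 1.54 (SE) with genotype only and -2.58 ± 0.30 (SE) with the library-3 term, where the adjusted p-value of edgeR's test was 0.0617. Library 3 was far below libraries 1 and 2 in both genotypes, so the spread within a genotype nearly equalled its mean.

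Its neighbour in the order of identifiers, 2G0213400, was the single gene called with the library-3 term and was named after its values were seen. It had 46.1, 45.8 and 2.64 CPM in bdmute libraries 1, 2 and 3, against 146, 182 and 11.1 CPM in WT. It fell by 1.91 ± 0.18 (SE) on the log2 scale in that edgeR fit, where its adjusted p-value was 0.0493. With genotype only the log2 fold change was -1.84 ± 1.23 (SE), and over the 14 alternatives to that fit the adjusted p-values ran from 0.0493 to 0.99995. The bdmute minus WT difference of the drop was -0.23 ± 0.44 for 2G0213400 and -1.06 ± 0.55 for 2G0213500 (log2, SE of the edgeR interaction fit). Whether these neighbours share reads was not tested.

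The genes at the upper end differed less. The gene 3G0044100 was at 11.3, 9.87 and 1.38 CPM in bdmute libraries 1, 2 and 3, against 6.16, 4.23 and 1.19 CPM in WT, and had a log2 fold change of 0.96 ± 0.85 (SE). The gene 3G0582500 was at 26.1, 37.2 and 4.18 CPM in bdmute, against 22.0, 15.8 and 3.76 CPM in WT, and had a log2 fold change of 0.70 ± 0.87 (SE). Adjusted p-values of edgeR's test were 0.99996 for both genes with genotype only, and 0.433 for 3G0044100 and 0.568 for 3G0582500 with the library-3 term. In both genes the ratio of the genotypes was nearer to 1 in library 3 than in libraries 1 and 2.

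**Figure D5:**
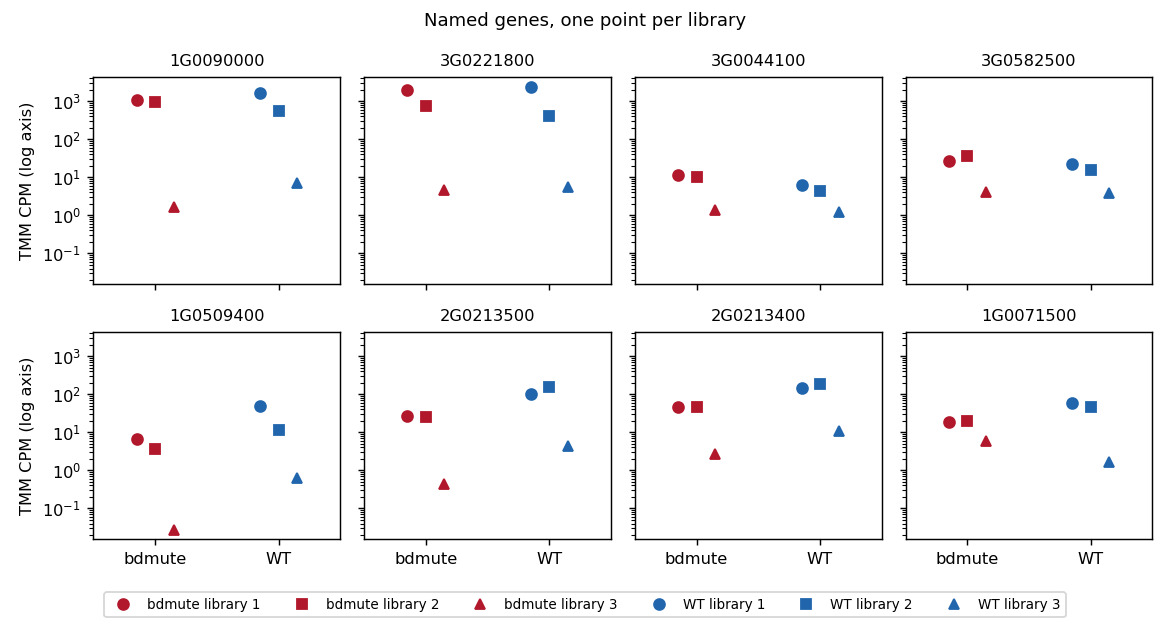
TMM-normalized CPM on a log axis, with bdmute left of WT in each panel and 1 point per library (circle for library 1, square for library 2, triangle for library 3). In each panel the triangles are the lowest point of their genotype, at 2.64 CPM in bdmute and 11.1 CPM in WT for 2G0213400, for example.

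Some of the genes lay next to each other in the order of identifiers. Among the expressed genes, 19 of the 141 (13.5%) had another gene of the group as their nearest neighbour, whereas 1.98% of all expressed genes had a gene of the group beside them. The 19 genes formed 1 run of 4, 1 run of 3 and 6 runs of 2. The run of 4 includes 3G0582500, and all of its genes were higher in both bdmute libraries 1 and 2 than in both WT libraries, with TMM, total-count and DESeq2 scaling alike. In library 3 this held for 3 of the 4, and the other one was at 1.75 CPM in bdmute and 1.99 CPM in WT. Their log2 fold changes with genotype only ran from 0.54 to 0.70, with unadjusted p-values from 0.452 to 0.521 in edgeR's test. The run of 3 includes 1G0090000, whose neighbours had drop ratios of 2.24 and 12.6. In the run of 4 the ratios were closer together, from 2.19 to 3.15. The number of genes of the group per leading digit of the identifier (1 to 5) was 34, 36, 38, 18 and 15, which is 0.800%, 1.14%, 1.17%, 0.879% and 1.18% of the expressed genes with that digit.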

How the data were processed

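The authors deposited a table of raw gene counts (not normalized), made from alignment files per the file headers. Bowtie2, FastQC and DESeq2 are listed in the submitters' processing notes, without versions. The counting tool, genome build, annotation and strand setting are not given in the sources used here, so duplicated, antisense or overlapping genes may share or lose reads. The authors' deposited table of their genotype comparison holds, per the file headers, a mean normalized signal, log2 fold changes with errors, a test score, p-values and adjusted p-values. DESeq2 1.42.0 with default settings, bdmute over WT, gave log2 values within 5.19e-05 of it, which fixes the order of the contrast as bdmute over WT. Count columns 1 and 2 were matched to samples by genotype and number, and column 3 to its genotype only.

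Genes were fitted with edgeR 4.0.16 in R 4.3.3 (filterByExpr, TMM, glmQLFit and glmQLFTest, Benjamini-Hochberg over all 20998 genes tested, threshold 0.05). All 141 genes of the group passed the filter. SEs are the absolute log2 fold change over the square root of F. The interaction fit had 2 residual degrees of freedom. Log2 ratios added 0.5 to each count. With the 1 count of 0 in the libraries numbered 3 set to 3 counts, the medians of the drop were unchanged at -3.22 in bdmute and -2.69 in WT. The fits were also run on simulated counts. The genes changed there were drawn at random and not chosen for a low library 3. The simulation therefore does not show how the fits behave on this group.

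Alternatives were other scalings, filters, DESeq2, a term for the libraries numbered 3, a replicate block, fewer libraries, and other settings of the selection rule. Named genes were the 2 deepest drops with at least 10 counts in both libraries numbered 3, and the 2 highest and 2 lowest log2 fold changes among genes whose genotypes separated in libraries 1 and 2 and lay on the same side in library 3. The group and these rules were chosen with earlier results of these data known. No library was a copy of another of its genotype, since pairs within a genotype had a chi-square of at least 44.1 per degree of freedom. Pairs across genotypes were not compared in this way. The labels do not say that libraries came from separate plantings, so p-values measure only the spread between these libraries.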

Additional observations from a re-analysis of the deposited data

Results flagged for a closer look

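The drop of 1G0071500 in library 3 passed the threshold for a difference between the genotypes in DESeq2 and did not in edgeR. The bdmute minus WT difference was 3.33 on the log2 scale in DESeq2, with an adjusted p-value of 0.00362, and the adjusted p-value of edgeR's quasi-likelihood test was 0.99999. It rests on 221 counts in bdmute library 3 and 60 counts in WT library 3, with 1 such library per genotype, so library 3 has no spread of its own and the tests assume that it varies like libraries 1 and 2. A difference between the genotypes is therefore not established. Groups of 3 libraries are too small for a check of single libraries that lie far out.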

How the results depend on the processing

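The number of genes that met the rule depended on its settings. It was 323 with TMM-adjusted library sizes and 338 with DESeq2's size factors, which included all 141 genes in both cases, because these scalings place the libraries numbered 3 lower. It was 331 with a fold of 1.5 and 55 with a fold of 3. Count minimums of 10 and 200 gave 190 and 111. Without each library in turn it ran from 146 to 417, the highest values being 417 without WT library 3, 338 without WT library 2 and 230 without bdmute library 3. Fewer libraries make the rule easier to meet by construction.

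Calls between genotypes were 0 under all alternatives except the library-3 term, which gave 1, against 0.11% of all genes tested. In edgeR, unadjusted p-values under 0.05 numbered 20 with the library-3 term, against 9.39% of all genes tested. They numbered 16 without both libraries numbered 3, against 6.98%. Without each library in turn they numbered from 0 to 2, and the shares of all genes in those fits are not given here. The median log2 fold change ran from -0.58 to 0.64 without each library in turn, which is partly built in, since library 3 is low by selection. The interaction gave 0 calls except in DESeq2, which gave 1. The median difference of the drop between genotypes (-0.51) stayed below 0, from -1.10 without WT library 1 to -0.20 without WT library 2. Without a library numbered 3 it cannot be computed.

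With the library number as a replicate block in edgeR, 0 of the 141 genes and 0% of all genes tested were called. Without adjustment 25 of the 141 (17.7%) had a p-value under 0.05, against 10.3% of all genes tested. The median log2 fold change of the 141 genes was -0.19. The block takes out the difference of library 3 by which the genes were chosen, so these shares are not a like comparison. Measured as deviations from the genotype mean, bdmute and WT libraries with the same number had correlations of 0.70 (number 1), -0.19 (number 2) and 0.72 (number 3) across genes. Deviations sum to 0 within a genotype, so these values are tied together. Correlations between libraries with different numbers are not given here. The labels do not say whether libraries with the same number were handled together, and this was not tested.

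Of 112 values of the 8 named genes under alternatives, 103 kept their direction and side of the threshold, 1 passed it (2G0213400 with the library-3 term) and 8 changed sign. The log2 fold change of 1G0090000 (-0.14) was 0.024 with total counts, and ran from -0.72 to 1.26 without each library in turn, with 0.43 without bdmute library 3. That of 3G0221800 (-0.03) was 0.10 with the replicate block, 0.14 with total counts and from -1.33 to 2.17 without each library in turn, positive without WT library 1 (2.17) and without bdmute libraries 2 (0.096) and 3 (0.54). Library 3 is low in both genes by selection, so the shifts without single libraries are partly built in. What else lies behind the shifts was not tested.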

Other observations

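The rule for lower genes selected 141, against 803 for the opposite rule of at least 50 counts in both libraries numbered 3 and a CPM there at least 2 times the highest of the other 4. With TMM-adjusted library sizes the rule selected 323 genes, against 378 for the opposite rule, and with DESeq2's size factors it selected 338, against 359. Most of the excess of higher over lower genes was thus absent after these scalings. They place the libraries numbered 3 lower, so a smaller excess is built in. The rules also set their minimum of 50 counts in different libraries, and so draw on different pools of genes. Among the 803 genes, library 1 lay below library 2 in bdmute for 600 (74.7%), in WT for 691 (86.1%) and in both for 545 (67.9%), which is the reverse of the order found among the 141 genes. Both rules ignore the order of libraries 1 and 2.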
